A study of Triticum aestivum with 10 samples.

Results

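The fructan exohydrolase and invertase genes of the developing wheat seed comprised all probe sets that the array's annotation assigns to LOC780575 (6-FEH), LOC543441 (1-FEH) or LOC543415 (IVR1), taken without regard to their signal. They were 5 of the 61179 tested probe sets and 3 of the 771 genes with a symbol: 3 probe sets for 6-FEH, 1 for 1-FEH and 1 for IVR1. RNA of whole developing seeds of the winter wheat cultivar Redland was measured on 10 Affymetrix wheat arrays, 2 in each of 5 groups. Plants of all groups were vernalised and grown in a growth chamber under 1 light and temperature regime. Regularly watered control plants gave seeds at 24, 48 and 72 hours after fertilization, written HAF, and plants whose watering had been stopped gave the drought seeds, at 48 and 72 HAF. The descriptions place the start of drought at 24 HAF in one passage and at 48 HAF in another, so the length of stress behind the 48 HAF drought seeds is not settled. The 2 arrays of each group are labelled as biological replicates with no plant named, so the p-values measure only the spread between these samples.

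Fructans are soluble chains of fructose built on sucrose, and temperate cereals such as wheat store them in stems, leaves and young grains. Fructan exohydrolases remove fructose from the chain end: 1-FEH acts mainly on inulin-type linkages and 6-FEH mainly on levan-type linkages. Invertases split sucrose into glucose and fructose, and cell wall invertase, the class to which IVR1 is assigned in wheat, works outside the cell where sucrose is unloaded into growing tissue. The 3 proteins belong to 1 family of glycoside hydrolases. Bread wheat carries A, B and D copies of most genes, and a probe set may read several copies at once. The reference table lists the names atpA and hydrolase beside IVR1 for LOC543415, so its annotation is not uniform. No other gene with a readable name on the array matched the list of fructan and sucrose metabolism and transport, which also sought fructan synthesis enzymes, sucrose synthase, sucrose phosphate synthase, sugar transporters and hexose kinases. The 3 members were therefore all that the search returned. It read symbols and synonyms but not descriptions, and it told capital from small letters, so names in another spelling would be missed. Only 101 of the 771 genes have a synonym in the reference table. Other genes of the pathway, sucrose synthase included, may therefore be on the array under another spelling or a number alone.

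The values are log2 levels, so a difference of 1 is a doubling, and levels of different probe sets cannot be set against each other. Control 24 HAF replicate 2 stood apart, with r = 0.811 to 0.898 to the other 9 arrays over the tested probe sets, and its BioB hybridisation control read 11.9 against 4.01 to 6.97 elsewhere. Drought 72 HAF replicate 2 correlated with the other arrays at 0.898 to 0.959. Array medians lay at 4.08 to 4.24. Among the seed tissue markers, the storage protein genes did not follow the labelled times on 2 control arrays, 24 HAF replicate 2 and 72 HAF replicate 1. Whether a label is wrong there was not tested. The comparisons of single groups that use either array are given with and without it for the brightest 6-FEH probe set. The 8 gliadin, glutenin and avenin-like genes, which encode storage proteins of the endosperm, averaged 4.02 on replicate 1 and 7.34 on replicate 2 of control 72 HAF, while the drought arrays of that time were at 7.51 and 6.59. They averaged 3.99 to 4.26 on the 4 arrays of 48 HAF, and 4.07 and 6.17 on replicates 1 and 2 of 24 HAF. Whole seeds hold several tissues, so fewer cells of a type and less RNA per cell cannot be told apart.

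The 2 arrays of a group lay far apart for 6-FEH in 4 of the 5 groups on its brightest probe set. On this probe set, whose identifier ends in _a_at, control seeds read 9.38 and 3.80 on replicates 1 and 2 at 24 HAF. Control seeds at 48 HAF read 9.62 and 8.45, and drought seeds 8.35 and 9.40. At 72 HAF, control seeds read 9.10 and 7.26 and drought seeds 7.30 and 7.31. The high array was replicate 1 in the control groups and replicate 2 in drought at 48 HAF, and both drought arrays of 72 HAF were low. Apart from control 24 HAF replicate 2, where 40.4% of the tested probe sets lay below it, 82.8 to 95.8% of probe sets lay below 6-FEH on each array. Over these 9 arrays it spanned 7.26 to 9.62, a 5.10-fold range, and 4.49% of the tested probe sets had a range at least as wide.

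**Figure D1:**
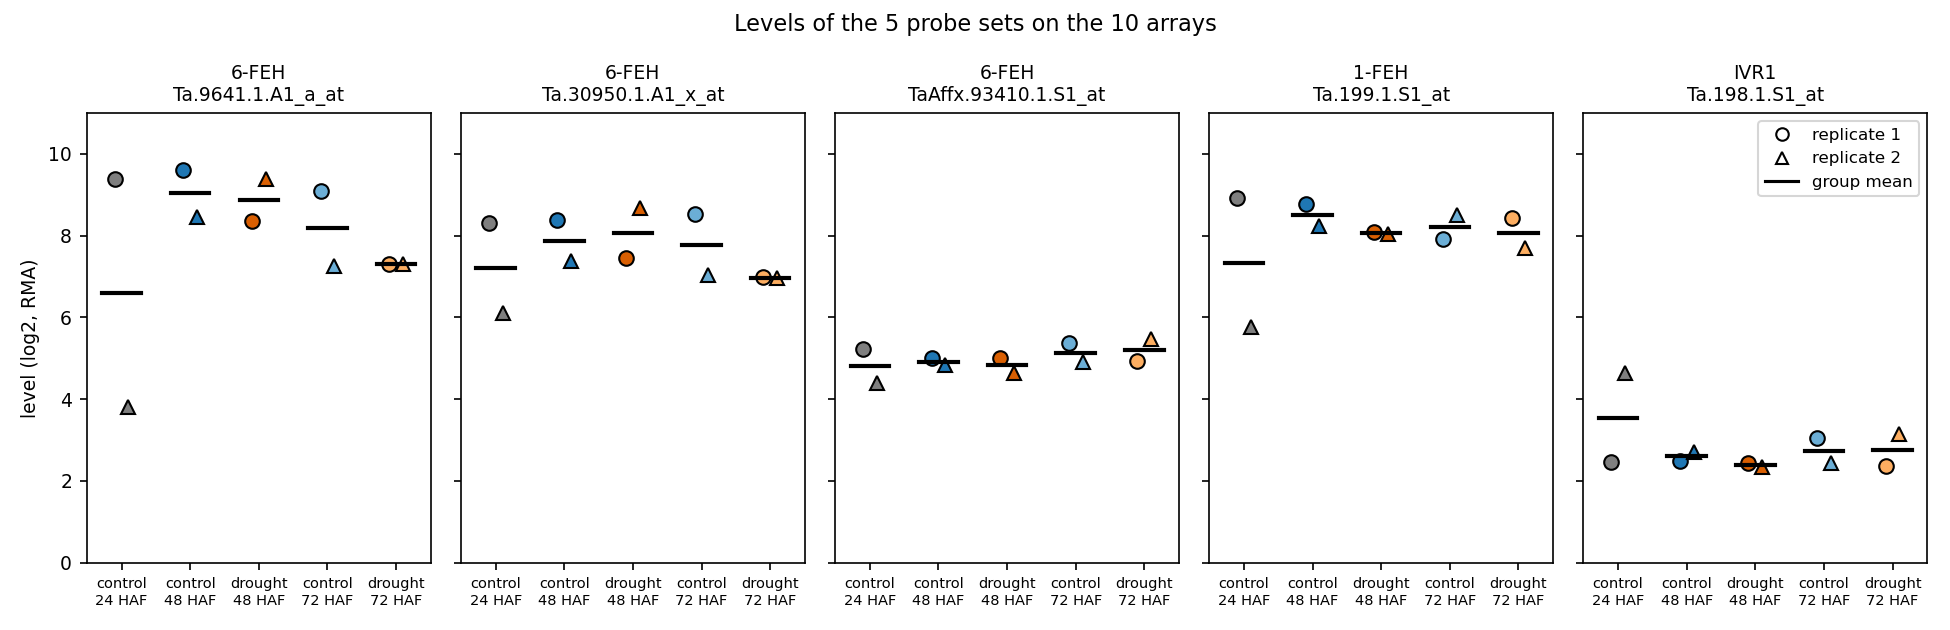
Level (log2 RMA value, vertical axis) of each of the 5 probe sets, 1 panel each, in the 5 groups. Circles are replicate 1, triangles replicate 2 and bars the mean of the 2 arrays; on the brightest 6-FEH probe set, control 72 HAF replicate 1 read 9.10 and the other 3 arrays of 72 HAF 7.26 to 7.31.

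The group means of this probe set were in the order control 48 HAF, at 9.03 ± 0.82 (SD, n = 2 as for each group mean here), drought 48 HAF, at 8.87 ± 0.74, control 72 HAF, at 8.18 ± 1.30, drought 72 HAF, at 7.30 ± 0.0075, and control 24 HAF, at 6.59 ± 3.94. No neighbours in that order were separated: the arrays of each group overlapped those of the next or lay inside their range. The replicates differed 2.24-fold in watered and 2.06-fold in droughted seeds at 48 HAF. At least as large a replicate difference was found for 1.60% and 1.95% of the tested probe sets in those groups. In control seeds at 72 HAF the replicates differed 3.56-fold, which 1.39% of probe sets matched or passed, and in drought seeds at 72 HAF 1.01-fold, which 98.6% did. In 3 of these 4 groups 6-FEH was among the probe sets with the widest replicate gaps, and in drought seeds at 72 HAF among those with the narrowest.

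The other probe sets of 6-FEH gave different pictures. The second in brightness, with the suffix _x_at, read 8.30 and 6.11 in control seeds at 24 HAF and 8.38 and 7.38 at 48 HAF. It read 7.46 and 8.68 in drought seeds at 48 HAF, 8.54 and 7.03 in control seeds at 72 HAF and 6.99 and 6.96 in drought seeds at 72 HAF. In each group with an appreciable gap the same array was high as on the brightest probe set, and over the 9 arrays without control 24 HAF replicate 2 the 2 probe sets correlated at r = 0.947. The suffix _x_at marks probes that may also match other transcripts. The third, whose identifier begins with TaAffx, spanned only 4.38 to 5.46 over the 10 arrays and lay above 52.9 to 67.3% of the tested probe sets. Its r with the brightest probe set was -0.107 over the 9 arrays and 0.50 over all 10. Replicate 1 was its higher array in the 3 control groups, as on the brightest probe set, by smaller margins (5.24 and 4.38 at 24 HAF and 5.37 and 4.90 at 72 HAF). In drought seeds at 48 HAF it read 5.02 and 4.64, the other way round, and at 72 HAF 4.93 and 5.46. These correlations describe arrays of the same seeds and carry no test. Signal over background was not measured here, and the third probe set may report little 6-FEH transcript.

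1-FEH, read by a single probe set, varied over a narrower range than the brightest 6-FEH probe set. Control seeds read 8.91 and 5.76 at 24 HAF, 8.78 and 8.23 at 48 HAF and 7.93 and 8.50 at 72 HAF. Drought seeds read 8.10 and 8.04 at 48 HAF and 8.43 and 7.70 at 72 HAF. Only control 24 HAF replicate 2 fell well outside the rest, which spanned 7.70 to 8.91, a 2.31-fold range that 26.1% of the tested probe sets reached or passed. On control 72 HAF the array with the higher 6-FEH level had the lower 1-FEH level, and over the 9 arrays the 2 genes correlated at r = 0.306. With control 24 HAF replicate 2 included, r was 0.837, so their likeness over all 10 arrays rested on that array. The group means were in the order control 48 HAF, at 8.51 ± 0.39, control 72 HAF, at 8.22 ± 0.41, drought 48 HAF, at 8.07 ± 0.044, drought 72 HAF, at 8.07 ± 0.52, and control 24 HAF, at 7.34 ± 2.23. Each group's arrays overlapped or enclosed those of the next.

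IVR1, also read by a single probe set, lay in the low part of every array but 1. Control seeds read 2.46 and 4.63 at 24 HAF, 2.50 and 2.72 at 48 HAF and 3.06 and 2.43 at 72 HAF, and drought seeds 2.43 and 2.34 at 48 HAF and 2.37 and 3.15 at 72 HAF. Between 19.4 and 32.3% of the tested probe sets lay below it on 9 arrays, and 57.7% on control 24 HAF replicate 2. Its values cannot be told from the low end of the array's range, and whether its transcript was detected was not tested. The group means were 3.55 ± 1.53 in control seeds at 24 HAF, 2.76 ± 0.56 in droughted and 2.74 ± 0.44 in watered seeds at 72 HAF, and 2.61 ± 0.16 in watered and 2.39 ± 0.062 in droughted seeds at 48 HAF. At 48 HAF the 2 control arrays lay above the 2 drought arrays, and the other neighbours in this order overlapped. Over 10 arrays IVR1 correlated with 1-FEH at r = -0.935, and over 9 arrays at -0.626.

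The comparison of drought with control asks how the seed responds to lost water. At 48 HAF, 6-FEH was at 8.87 in drought and 9.03 in control seeds on its brightest probe set, a difference of -0.16 (95% interval -3.58 to 3.27, limma adjusted p = 1). The second 6-FEH probe set went the other way, with 8.07 in drought and 7.88 in control seeds, a difference of 0.19 (interval -1.68 to 2.06). The third differed by -0.090 (interval -1.01 to 0.83). 1-FEH differed by -0.44, with 8.07 in drought and 8.51 in control seeds (interval -2.42 to 1.54, limma adjusted p = 1). IVR1 differed by -0.22 (interval -1.62 to 1.18, limma adjusted p = 1). Both drought arrays lay below both control arrays for 1-FEH and IVR1, that is for 2 of the 5 probe sets, while 31.3% of all tested probe sets did not overlap between these groups. Limma called 0 of the 61179 probe sets (0%) at an adjusted p of 0.05 in this or any of the other 7 comparisons, and no member did. At an unadjusted p of 0.05, limma gave 82 probe sets here and 68 to 2470 over all 8 comparisons, no member among them.

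At 72 HAF, 6-FEH was at 7.30 in drought and 8.18 in control seeds on its brightest probe set and at 6.97 and 7.78 on the second probe set. The differences were -0.88 (95% interval -4.30 to 2.55) and -0.81 (-2.68 to 1.06), neither past the threshold (limma adjusted p = 1 for both). They rested on control replicate 1: without it, the differences were 0.038 and -0.058, and without control replicate 2 they were -1.80 and -1.56. The third 6-FEH probe set differed by 0.057 (-0.87 to 0.98), 1-FEH by -0.15 (-2.13 to 1.83) and IVR1 by 0.016 (-1.38 to 1.42). The drought and control arrays did not overlap for the second 6-FEH probe set, 1 of 5 member probe sets, against 21.3% of all tested probe sets. The storage protein list was at 4.02 on control replicate 1, the array with high 6-FEH, and at 7.34 on replicate 2. The part of that difference in the 6-FEH values was not tested.

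Over 48 and 72 HAF together, the 4 drought arrays of 6-FEH averaged 8.09 ± 1.00 (SD, n = 4) and the 4 control arrays 8.61 ± 1.01 (n = 4) on the brightest probe set, and the exact two-sided permutation p was 0.486. 1-FEH averaged 8.07 ± 0.30 and 8.36 ± 0.37 (exact permutation p = 0.257, n = 4 each). No exact test of the 5 probe sets in this comparison or of 72 against 48 HAF passed 0.05, before or after adjustment over the 10 tests; the smallest p that 4 arrays against 4 allow is 0.0286, and 2 against 2 allow 0.333. In all 5 probe sets the drought mean was lower, with differences from -0.52 to -0.016. As 3 of them read 6-FEH on the same arrays, they are not independent, and the share of all probe sets lower in drought was not counted. Leaving out 1 array moved the brightest 6-FEH probe set from -0.98 (without control 72 HAF replicate 2) to -0.060 (without replicate 1) and 1-FEH from -0.48 to -0.11, and the other 3 probe sets changed sign in some such fit. Here 0 of the 5 had arrays that did not overlap, as 0.721% of all tested probe sets did. The drought effect at 72 HAF minus that at 48 HAF was -0.72 for 6-FEH (95% interval -5.57 to 4.12) and 0.29 for 1-FEH (-2.52 to 3.09), with limma adjusted p = 1 for both.

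**Figure D2:**
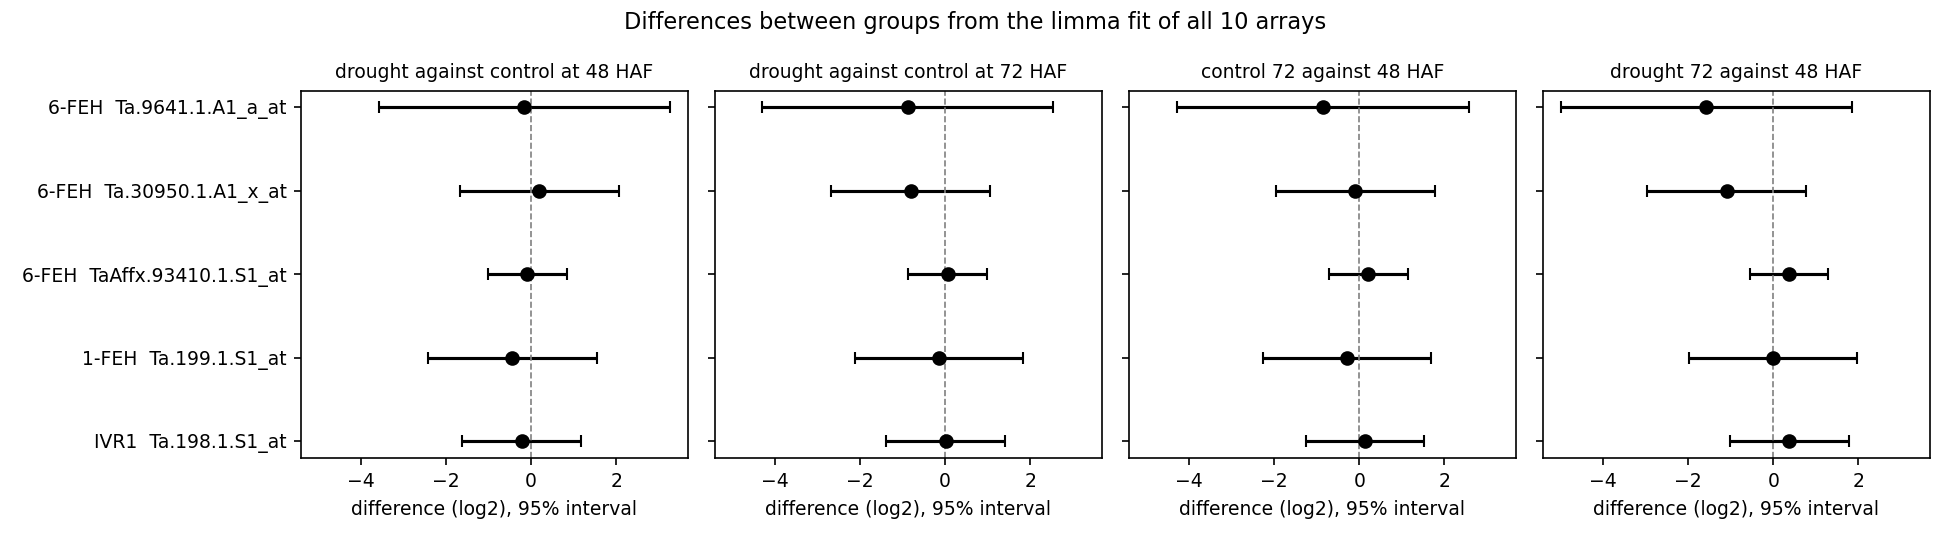
Difference between groups (log2, horizontal axis) of the 5 probe sets, with 95% intervals from the limma fit of all 10 arrays, 2 arrays in each group. Every interval in the 4 panels includes 0; the widest belong to the brightest 6-FEH probe set, from -5.00 to 1.85 for drought 72 against 48 HAF.

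From 48 to 72 HAF, 6-FEH was lower in drought seeds on both bright probe sets. The brightest went from 8.87 ± 0.74 to 7.30 ± 0.0075 (SD, n = 2 each), a difference of -1.57 or 2.97-fold, and the second from 8.07 ± 0.86 to 6.97 ± 0.023, a difference of -1.10 or 2.14-fold. Neither passed the threshold (limma adjusted p = 0.953 for both). Their arrays did not overlap between the times, in 2 of the 5 member probe sets, against 44.5% of all tested probe sets. The intervals were wide because the spread of all groups is pooled, and on the brightest probe set control 24 HAF held most of it. On the second probe set control 24 HAF also had the largest SD, 1.55, but control 72 HAF was at 1.07. With only the 4 drought arrays in the fit, the SE of the brightest probe set was 0.45 and its limma adjusted p was 0.549 (unadjusted 0.00918), while 91 other probe sets passed. Leaving out drought 48 HAF replicate 1 or 2 gave -2.09 or -1.05 on the brightest probe set and -1.70 or -0.49 on the second. The third 6-FEH probe set was 0.37 higher at 72 HAF, 1-FEH differed by -0.0022 and IVR1 by 0.37 (limma adjusted p = 0.953, 1 and 0.963).

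In watered seeds, the difference of the brightest 6-FEH probe set between the same times rested on 1 array. The brightest probe set differed by -0.85 (95% interval -4.28 to 2.57, limma adjusted p = 1). Control 72 HAF replicate 1 lay within the 48 HAF range and replicate 2 below it: without replicate 2 the difference was 0.067 and without replicate 1 it was -1.77. The other 6-FEH probe sets did not share the lower mean of the brightest: the second differed by -0.097 (-1.97 to 1.77) and the third by 0.22 (-0.71 to 1.14). 1-FEH differed by -0.29 (-2.27 to 1.69) and IVR1 by 0.14 (-1.26 to 1.54). None of the 5 probe sets had arrays that did not overlap, against 33% of all tested probe sets.

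Over both treatments, 3 of the 4 arrays of 72 HAF lay below all 4 arrays of 48 HAF on the brightest 6-FEH probe set. Its means were 7.74 ± 0.90 at 72 HAF and 8.95 ± 0.65 at 48 HAF (SD, n = 4 each), a difference of -1.21 or 2.31-fold, with an exact two-sided permutation p of 0.0857, or 0.628 after adjustment over the 10 tests. By limma the adjusted p was 0.974 with all 10 arrays and 0.39 (unadjusted 0.026) without control 24 HAF replicate 2. Without control 72 HAF replicate 2 the difference was -0.75, and without replicate 1 it was -1.67. The second 6-FEH probe set differed by -0.60 (exact permutation p = 0.2) and the third by 0.29, in the other direction (exact permutation p = 0.229), and the mean of the 3 probe sets by -0.51. 1-FEH was at 8.14 ± 0.39 and 8.29 ± 0.34 (exact permutation p = 0.6, n = 4 each), a difference of -0.15 with a 95% interval of -1.55 to 1.26 by limma. IVR1 differed by 0.26 (exact permutation p = 0.314). None of the member probe sets had times that did not overlap, against 12.2% of all tested probe sets.

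From 24 to 48 HAF in watered seeds, the differences between the means rested on control 24 HAF replicate 2. Replicate 1 of 24 HAF read 9.38 for the brightest 6-FEH probe set, 8.91 for 1-FEH and 2.46 for IVR1, close to the 9.62, 8.78 and 2.50 of replicate 1 of 48 HAF. On replicate 2, 6-FEH and 1-FEH had their lowest levels of all arrays and IVR1 its highest. The differences of 48 against 24 HAF were 2.44 for 6-FEH, 1.17 for 1-FEH and -0.94 for IVR1 (limma adjusted p = 0.621 for each). Without replicate 2 of 24 HAF they were -0.35, -0.40 and 0.14. Without replicate 1, a fit in which 24 HAF is replicate 2 alone and is assumed to vary like the other groups, they were 5.23, 2.74 and -2.03, all past the threshold (limma adjusted p = 0.00155, 0.00232 and 0.00343), as were 25621 of all probe sets. No member had groups that did not overlap, against 24.8% of all tested probe sets.

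Set beside the storage protein genes at 72 HAF, the brightest 6-FEH probe set was high on the array where their mean was low. At 72 HAF, the arrays with the storage list at 7.34, 7.51 and 6.59 had 6-FEH at 7.26, 7.30 and 7.31, and the array with the list at 4.02 had 6-FEH at 9.10. The 8 genes did not move alike. The gamma-gliadin LOC543214 read 1.60 on that array and 8.17 to 8.73 on the other 3, while the gliadin LOC543385 read 1.60 against 1.98 to 2.72 and the avenin-like LOC100125692 9.50 against 8.59 to 9.84. At 48 HAF the storage list was low on all 4 arrays, at 3.99 to 4.26, while 6-FEH still ranged from 8.35 to 9.62. Control 24 HAF replicate 2 had the lowest 6-FEH level and a storage list mean of 6.17. Its summed linear level over the 8 genes (1210) was near the 1070 to 1200 of the 48 HAF arrays, but with a different make-up. LOC100125692, the brightest of the list at 48 HAF with 9.91 to 10.1, had its lowest reading on control 24 HAF replicate 2, 7.91. Every other gene of the list read higher on that array than on any array of 48 HAF, with LOC543214 at 7.55 against 1.59 to 1.80. 1-FEH did not follow this order, with 8.50, 8.43 and 7.70 on the 3 arrays of 72 HAF with a high storage list and 7.93 on the other. AGP-S (LOC543299), the small subunit of the enzyme that makes ADP-glucose for starch, read 9.58 and 11.3 on the control arrays of 72 HAF and 11.2 and 9.60 on the drought arrays. The other starch gene, waxy (LOC543395), the granule-bound starch synthase, read 10.7 to 10.8 on these 4 arrays.

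**Figure D3:**
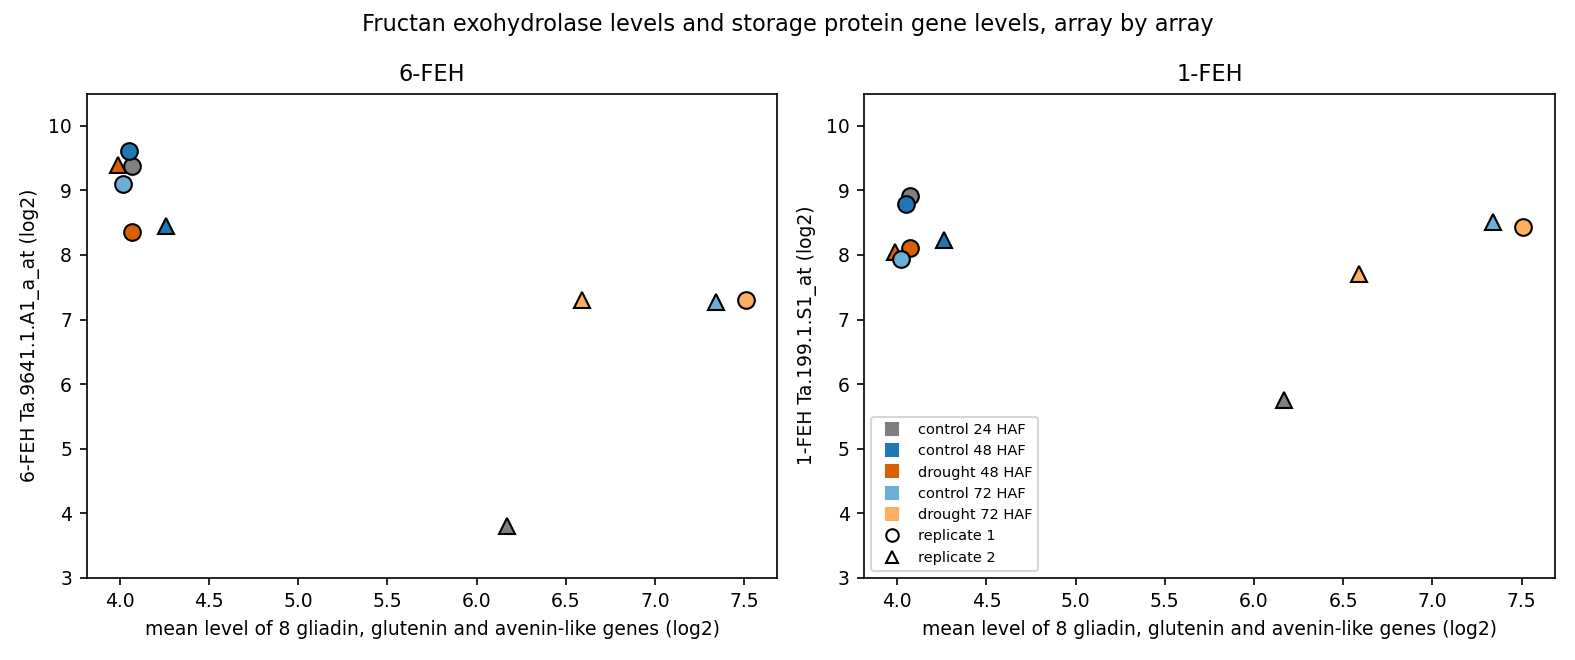
Level of the brightest 6-FEH probe set (left) and of 1-FEH (right) against the mean log2 level of 8 gliadin, glutenin and avenin-like genes, 1 point per array, coloured by group, with circles for replicate 1 and triangles for replicate 2. The 3 arrays of 72 HAF with a storage mean of 6.59 to 7.51 have 6-FEH at 7.26 to 7.31, and control 72 HAF replicate 1 lies at 4.02 and 9.10.

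The mean of the green tissue markers differed between replicates in the opposite direction to 6-FEH in 3 of the 4 groups of 48 and 72 HAF, by far less. The list held the Rubisco large subunit and the photosystem II proteins PsbO and PsbP, and its mean was 11.8 and 12.1 on replicates 1 and 2 of control 48 HAF, 12.0 and 11.6 in drought at that time and 11.9 and 12.1 in control at 72 HAF. In drought at 72 HAF, where the 6-FEH arrays were level, it was 12.3 and 12.1. The 3 genes did not run alike. PsbO and PsbP each ran opposite to 6-FEH in both groups of 48 HAF and in control at 72 HAF. The Rubisco large subunit differed little between replicates. Its small differences ran the same way as 6-FEH in both groups of 48 HAF and opposite to it in control at 72 HAF. Dehydrin and LEA genes, 5 in number and known for protecting drying cells, averaged 3.46 to 4.22 over the 10 arrays, and profilin (LOC543315), a protein abundant in pollen, read 12.4 to 12.6. The part of these tissues in the 6-FEH values was not tested.

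Genes alike in pattern were sought among the other 768 genes with a symbol by Pearson's r over the 9 arrays without control 24 HAF replicate 2. For 6-FEH the 5 highest were LOC543100 (r = 0.975), LOC100037609 (0.974), LOC542876 (0.972), LOC543003 (0.961) and LOC780585 (0.959), none with a readable name. LOC543100 was also the first of 768 over all 10 arrays (r = 0.99), and at 72 HAF it read 7.61 and 6.10 in control and 6.17 and 5.95 in drought seeds. Over 10 arrays LOC542876 had r = 0.566 and place 308. For 1-FEH the 5 were LOC778398 (r = 0.942), LOC542827 (0.919), LOC543005 (0.865), LOC542785 (0.858) and LOC543424 (0.855). LOC542827 was the first of 768 over 10 arrays, at r = 0.982. For IVR1 they were LOC606335 (r = 0.964), raftin1a (LOC543442, 0.951), LOC606375 (0.949), XTH (0.945) and LOC606390 (0.929). XTH, by its name a xyloglucan endotransglucosylase and hydrolase of the cell wall, had r = 0.819 over 10 arrays, and raftin1a, an anther protein, read 1.91 to 2.65 on all arrays and had r = 0.057. The arrays are shared by all genes, so these values describe likeness only.

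**Figure D4:**
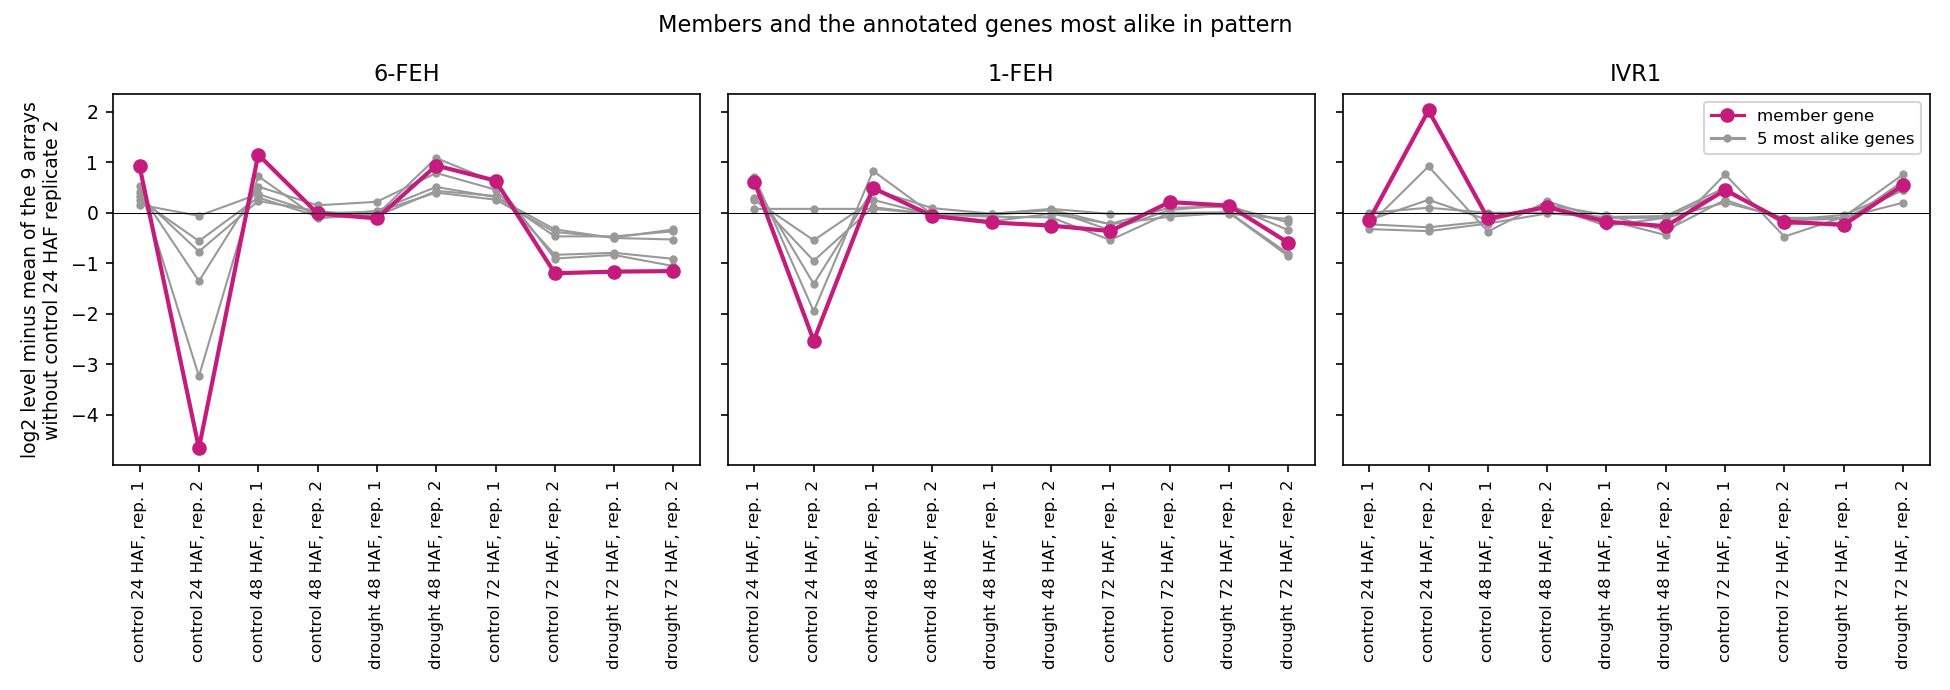
Log2 level minus the gene's own mean over the 9 arrays without control 24 HAF replicate 2 (vertical axis), on each array, for 6-FEH, 1-FEH and IVR1 (coloured) and the 5 annotated genes most alike to each (grey). The grey lines were picked for their likeness over those 9 arrays, and on control 24 HAF replicate 2 they lie well apart from the member in most cases.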

How the data were processed

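Total RNA of whole seeds was labelled and hybridised to 1 array per sample, per the labels. The deposited values are log2 expression values, which the authors made with affy and RMA, per the submitters' processing notes, with their versions not given in the sources used here. RMA brings all arrays to a common distribution, so values are relative to the rest of the array. Of 61290 probe sets, 111 controls were left out. Genes were named by the platform's annotation and the reference gene table, and 101 of 771 genes had another name there. All probe sets were fitted with limma 3.58.1 in R 4.3.3 (a mean for each group, moderated variances with intensity trend, residual degrees of freedom 5, prior 3.59), with Benjamini-Hochberg adjustment over 61179 probe sets and a threshold of 0.05; the step was tested on simulated data. Exact tests used scipy 1.17.1. All 5 member probe sets, the listed genes and the 5 most alike genes per member are named. The members, lists and the array left out for likeness were chosen with earlier results of these data known, and list terms were matched to gene synonyms after the names were seen. With 2 arrays a group, their number limits the precision. Equal replicate numbers did not pair the arrays throughout: replicate differences correlated between groups at -0.519 to 0.586. Between control and drought they correlated at -0.489 at 48 HAF and -0.519 at 72 HAF, so unlike numbers ran together there. Whether the seeds were paired in that crossed order is not known. The fit with a crossed pairing gave counts of calls only, with no member values.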

Additional observations from a re-analysis of the deposited data

How the results depend on the processing

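In 672 values of the 40 member differences under other settings, 55 changed sign. None passed the threshold except in the fit that has control 24 HAF replicate 2 alone at 24 HAF. No member difference passed without the intensity trend, with array weights, with only the groups compared or with the replicate number as a block (replicate block). The block gave 0 calls in each comparison. Nor did any pass with the filter on a mean of at least 5, which left out IVR1 and the third 6-FEH probe set. These settings leave each group mean as it was, since the array weights were equal within each group, so no sign could change. They bear on the spread alone, and the 672 values include them. With the mean of the 6-FEH probe sets, no difference changed sign or passed. A crossed pairing of the replicate numbers, added after the data were seen, gave 1 call for drought at 48 HAF and 0 at 72 HAF. With arrays centred on their medians, IVR1 under drought at 72 HAF was -0.024. Drought 72 against 48 HAF had 91 calls with only its own groups. Without 1 array, calls ranged from 0 to 25621 for control 48 against 24 HAF, from 0 to 2 for 72 against 48 HAF over both treatments, for control 72 against 48 HAF and for drought at 48 HAF, and stayed at 0 in the other 4 comparisons.

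Without both arrays that stand apart (control 24 HAF and drought 72 HAF replicates 2, also added later), differences changed sign in control 48 against 24 HAF, to -0.35, -0.42 and -0.32 for the 3 probe sets of 6-FEH from bright to dim, -0.40 for 1-FEH and 0.14 for IVR1. They did so under drought at 72 HAF, to -0.21 for the dim 6-FEH probe set, 0.22 for 1-FEH and -0.38 for IVR1, in drought 72 against 48 HAF, to 0.36 for 1-FEH and -0.020 for IVR1, over both treatments, to 0.038 for 1-FEH, and in the difference between the drought effects, to -0.12 for dim 6-FEH and -0.16 for IVR1.

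In fits without 1 array, 26 of the 40 differences changed sign at least once. The brightest 6-FEH probe set ranged from -0.35 to 5.23 in control 48 against 24 HAF, -1.77 to 0.067 in control 72 against 48 HAF, -0.74 to 0.43 under drought at 48 HAF, -1.80 to 0.038 at 72 HAF and -1.64 to 0.19 in the difference between the drought effects. The second ranged from -0.42 to 1.77, -0.85 to 0.66 and -0.42 to 0.80 in the first 3 of these and from -0.69 to 0.066 under drought over both times. The third ranged from -0.32 to 0.53, -0.016 to 0.45, -0.28 to 0.10, -0.21 to 0.33 and -0.12 to 0.42 in these 5, and from -0.15 to 0.12 under drought over both times. 1-FEH ranged from -0.40 to 2.74 in control 48 against 24 HAF, -0.37 to 0.36 in drought 72 against 48 HAF, -0.33 to 0.038 over both treatments, -0.52 to 0.22 under drought at 72 HAF and -0.080 to 0.65 in the difference between the drought effects. IVR1 ranged from -2.03 to 0.14 in control 48 against 24 HAF, -0.18 to 0.45 in control and -0.020 to 0.77 in drought 72 against 48 HAF, -0.38 to 0.41 under drought at 72 HAF, -0.30 to 0.094 over both times and -0.16 to 0.63 in the difference between the drought effects. The cause was not tested. Depth of signal over background is unknown for all probe sets.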

Other observations

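Over the 9 arrays without control 24 HAF replicate 2, 533 of the other tested probe sets (0.871%) followed the brightest 6-FEH probe set at r of at least 0.9 and 684 (1.12%) ran opposite at -0.9 or below. For 1-FEH the numbers were 83 (0.136%) and 74 (0.121%), and for IVR1 1497 (2.45%) and 1112 (1.82%). Among the 768 other genes with a symbol, 18 followed 6-FEH, 2 followed 1-FEH and 14 followed IVR1 at that level. The limit of 0.9 was chosen after the data had been seen, all probe sets share the same 9 arrays, and the counts carry no test.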
